A study of Mus musculus with 8 samples.

Results

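The response of wild-type (WT) mouse splenocytes to amsacrine was read from 1 array of treated cells against 1 array of control cells. It comprised the genes whose probe was detected, with a detection p under 0.01, on at least 1 of the 2 arrays. That rule took 8922 of 24613 probes, of which 7754 carried 1 gene symbol, and gave 6712 of the 7456 genes detected on any of the 8 arrays of the series. Of the 6712 genes, 5543 were detected on both WT arrays, 338 on the amsacrine array alone and 831 on the control array alone. All mice were C57BL/6, aged 5 to 6 weeks, and each cell suspension pooled the spleens of 4 animals. Amsacrine was given in culture at 1 µg/mL for 5 hours, and the carrier of the amsacrine experiments was 30% ethanol. The series also holds p53-/- cells (p53-null, 2 control arrays, 1 amsacrine array and 1 array after 4 Gy of gamma irradiation) and Δ122p53 cells (1 control and 1 amsacrine array). Δ122p53 is an N-terminally truncated p53. The labels do not say which control arrays received the carrier and which were the untreated controls of the irradiation experiments. The p53-null control pair may therefore differ in carrier as well as in culture, and the WT difference may hold an effect of the carrier, which cannot be told apart from that of the drug. Spleen is a mixture of cell types, so fewer cells of a type and less RNA per cell cannot be told apart in these arrays.

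Amsacrine is a topoisomerase II poison: it traps the enzyme on cut DNA and leaves double-strand breaks. Such breaks activate kinases that stabilise p53, a transcription factor that binds response elements near its targets. Its best known targets halt the cell cycle (Cdkn1a), degrade p53 in a feedback loop (Mdm2), or promote apoptosis, to which resting lymphocytes are sensitive. Promoters of 3 p53 targets are shown because these genes were higher in treated WT cells and a window at an annotated start of each held a p53 half-site. The best known p53 elements of Mdm2 lie in its first intron. Each run covers 250 bases before and 50 bases after the transcription start in RefSeq (GRCm38.p6), 5′ to 3′, and capitals mark matches to the p53 half-site, searched on both strands.
Cdkn1a, chr17:29090729-29091028, plus strand: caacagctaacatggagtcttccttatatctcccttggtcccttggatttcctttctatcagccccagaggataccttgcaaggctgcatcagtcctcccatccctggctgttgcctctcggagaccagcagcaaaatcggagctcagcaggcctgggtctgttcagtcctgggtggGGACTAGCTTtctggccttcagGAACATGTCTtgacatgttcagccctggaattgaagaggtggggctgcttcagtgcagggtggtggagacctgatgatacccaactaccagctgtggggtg
Ccng1, chr11:40755237-40755536, minus strand: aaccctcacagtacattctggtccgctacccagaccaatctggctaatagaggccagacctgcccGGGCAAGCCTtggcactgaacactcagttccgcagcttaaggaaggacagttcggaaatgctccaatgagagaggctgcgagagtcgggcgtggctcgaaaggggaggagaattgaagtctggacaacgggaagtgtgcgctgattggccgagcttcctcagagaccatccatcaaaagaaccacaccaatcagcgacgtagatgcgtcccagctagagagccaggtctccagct
Mdm2, chr10:117710709-117711008, minus strand: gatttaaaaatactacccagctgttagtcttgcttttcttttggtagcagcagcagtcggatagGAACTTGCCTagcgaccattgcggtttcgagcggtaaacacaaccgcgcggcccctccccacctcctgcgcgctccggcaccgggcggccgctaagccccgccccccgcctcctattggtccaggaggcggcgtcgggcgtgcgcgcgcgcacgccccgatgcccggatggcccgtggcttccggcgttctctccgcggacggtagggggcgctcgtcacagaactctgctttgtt
The Cdkn1a window shown is that of the upstream of 2 starts in RefSeq; the window of the downstream start held 0 half-sites. Half-sites of this kind were found in 8.4% of all 32851 promoters of this length, in 6.2% of those of genes at least 2-fold higher in treated WT cells, and in 7.1% of those of genes at least 2-fold lower. Among the measured p53 targets described next, 10 of 33 promoters held one (30.3%). A match describes the letters of the window and is no evidence of binding.

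Many genes differed between the WT arrays. Log2 signals were at least 2-fold higher after amsacrine for 714 genes (10.6%) and at least 2-fold lower for 905 (13.5%). Between the p53-null controls, the only pair of arrays of one group, 307 of the same 6712 genes (4.57%) were at least 2-fold higher on control 2 and 151 (2.25%) at least 2-fold lower. The median absolute difference was 0.54 between the WT arrays and 0.30 between the null controls, and 242 and 41 genes differed over 4-fold. With 1 array a side the WT difference has no replicate check of its own. In limma, which took its spread from the null control pair, 0 of 7456 genes passed an adjusted p of 0.05 (0%), the smallest adjusted p was 0.0669, and 1467 genes had an unadjusted p under 0.05. Values below are therefore differences between 2 arrays on the log2 scale, with the standard error (SE) of that model where given. For a gene not detected on 1 of the WT arrays only a lower limit of the fold is given ("at least"). The limit holds under the main processing only and can be smaller under others. It sets the brighter array against the dimmer one's lowest detected signal, or against the gene's own value there if higher. Counts of genes at least 2-fold apart use the measured values; with undetected genes at their limits 637 genes were at least 2-fold higher and 674 lower, and for the lists both counts are given where they differ. Across all 6712 genes 3506 were higher and 3198 lower, with a median of 0.04.

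**Figure D1:**
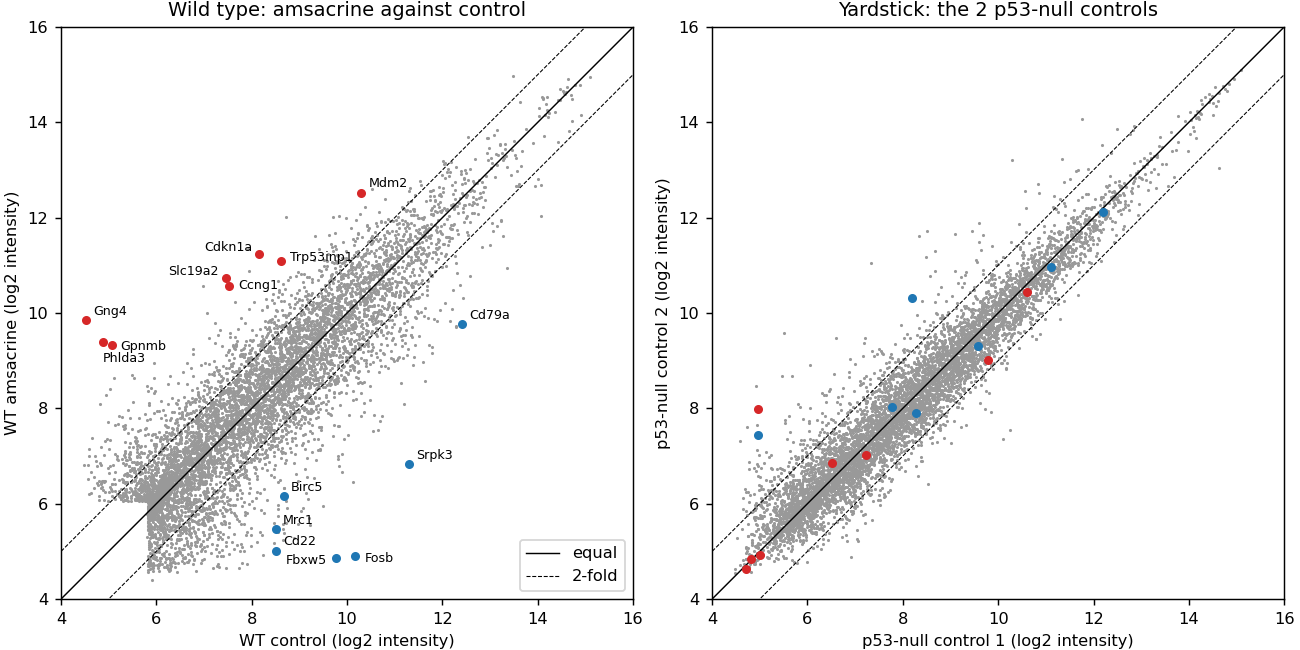
Log2 intensity of the 6712 genes on the WT control and amsacrine arrays (left) and on the 2 p53-null control arrays (right), 1 point a gene; dashed lines mark 2-fold. Labelled genes (red higher, blue lower in WT) lie far outside the 2-fold lines on the left, and most of them near the diagonal on the right; the median absolute difference is 0.54 on the left and 0.30 on the right.

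p53 targets lay mostly on the higher side. Of 55 listed targets 32 were measured, 21 were higher and 11 lower, and 16 were at least 2-fold higher (15 with bounds) against 1 at least 2-fold lower. Their median was 1.01, or 0.82 with undetected genes at their bounds, against 0.04 for all genes. The median difference of the same genes between the null controls was -0.06. Their median response to amsacrine was 0.14 in p53-null cells and -0.09 in Δ122p53 cells. The lists were compiled with earlier results of these data known, so these counts describe the arrays and are no test. Phlda3, Zmat3, Apaf1, Aen, Fas and Polk were detected on WT amsacrine but not on WT control. They were thus counted through the array on which they were higher. With no detection filter the medians were 0.19 for arrest and feedback, 0.24 for apoptosis, and 0.54 for repair and metabolism targets.

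Among arrest and feedback targets, 6 of 12 measured members were at least 2-fold higher and 0 at least 2-fold lower (median 1.42). That median was 0.76 with detection on both WT arrays, 0.60 in the authors' deposited table and 0.19 with no detection filter. Phlda3, which restrains Akt signalling, was not detected on the WT control array (4.88) and reached 9.39 after amsacrine, at least 11.98-fold higher. It stood at 4.81 and 4.84 on the null controls, 4.53 on null amsacrine, 4.75 on Δ122p53 control and 4.99 on Δ122p53 amsacrine. The treated WT array was thus the only one of these 7 arrays on which Phlda3 lay above 5. Ccng1, cyclin G1, went from 7.52 to 10.58 in WT cells (3.05 ± 0.38 SE) and lay between 7.02 and 7.72 on the 5 other control and amsacrine arrays. Mdm2, the ubiquitin ligase that degrades p53, was at 10.30 on the WT control and 12.52 on WT amsacrine (2.22 ± 0.38 SE). On the null controls it was at 10.60 and 10.44, on null amsacrine at 10.88, and on the Δ122p53 arrays at 10.27 and 10.32. For both genes the WT amsacrine array was the highest of the 7, and the null controls differed by 0.20 or less. Trp53inp1, a stress-induced partner of p53, went from 8.62 to 11.08, with 9.78 and 9.01 on the null controls. Zmat3, an RNA-binding p53 target, was at least 3.31-fold higher.

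Cdkn1a, which encodes the cell cycle inhibitor p21, went from 8.16 on WT control to 11.23 on WT amsacrine, a difference of 3.07 ± 1.31 (SE). Its wide error comes from the null controls, which stood at 4.97 and 7.98. The null amsacrine array was at 8.24, and the Δ122p53 arrays at 9.45 without and 10.06 with amsacrine. The WT amsacrine level was the highest of all, but its distance from WT control was about the distance between the null controls (3.01). Plk2, a stress-induced polo-like kinase, was 0.57 higher in treated WT cells while its null controls differed by 4.06. Gadd45a, a growth arrest gene, was at -0.64, and the p53 ligases Cop1 and Rchy1 were at -0.59 and -0.52.

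**Figure D2:**
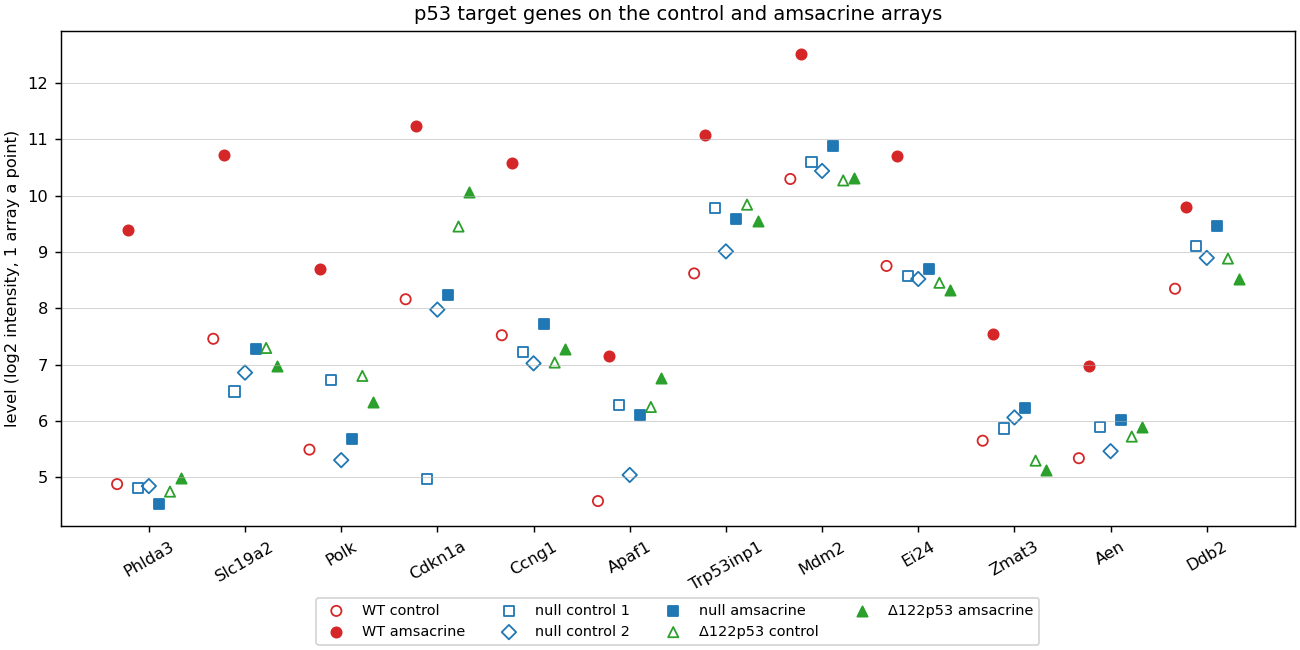
Log2 intensity of 12 p53 target genes on the 7 control and amsacrine arrays, 1 point an array (circles WT, squares and diamonds p53-null, triangles Δ122p53; open symbols control, filled symbols amsacrine). The 12 genes were picked from the targets at least 2-fold higher in WT. The filled WT circle is the highest point for each of them, from 6.97 for Aen to 12.52 for Mdm2. The 2 open p53-null symbols lie apart for Cdkn1a (4.97 and 7.98). Fas and Dgka, not plotted, were not highest on WT amsacrine. Fas was at 6.50 there and 8.09 on Δ122p53 amsacrine, and Dgka at 11.50 there and 12.04 on null control 1.

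The apoptosis targets were divided: 5 of 10 were higher, at least 2-fold by value and 4 of them with bounds, and the 5 others were lower by less than 2-fold (median 0.54). Apaf1, the core of the apoptosome, was at least 2.53-fold higher, Aen, an apoptosis-enhancing nuclease, at least 2.24-fold, and the death receptor gene Fas at least 1.61-fold. Fas was also higher after amsacrine in p53-null (0.72) and Δ122p53 cells (1.25). Ei24 went from 8.75 to 10.70, and the death receptor gene Tnfrsf10b from 6.44 to 7.60. Pmaip1, which encodes the BH3-only protein Noxa, was at -0.47 and the BH3-only gene Bid at -0.08. Because Apaf1, Aen and Fas were not detected on WT control, the list's median was -0.27 when only genes detected on both WT arrays were kept. In the wider Bcl-2 family 4 of 11 genes were higher and 7 lower (median -0.08), against a null control median of -0.12. Bcl2l11, the gene of the BH3-only death protein Bim, was higher by at least 5.57-fold in WT and differed by 3.04 in p53-null cells. The pro-survival gene Bcl2l1 was higher by 1.69 ± 0.38 (SE), while Bcl2 was at -1.08 and the pro-apoptotic gene Bad at -1.24. Caspase and apoptosome genes had 6 of 12 higher and a median of 0.06, which turned to -0.04 with cyclic loess scaling and -0.02 in the authors' deposited table.

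Repair and metabolism targets of p53 had 8 of 10 members higher, 5 of them at least 2-fold, with a median of 0.84. Slc19a2, a thiamine transporter gene, went from 7.46 to 10.73 in WT cells (3.27 ± 0.40 SE), with 6.52 and 6.86 on the null controls and 7.28 on null amsacrine. Polk, a translesion DNA polymerase gene, was at least 7.40-fold higher in WT, although its null controls stood at 6.73 and 5.31. Ddb2, which recognises ultraviolet damage in DNA, went from 8.35 to 9.81, although 1 of its 2 other detected probes had the opposite sign. The repair endonuclease gene Ercc5 was higher by 1.13 and the lipid kinase gene Dgka by 1.07. Gpx1, a glutathione peroxidase gene, was the 1 target at least 2-fold lower (-1.35), and its response in p53-null cells was -1.91. DNA damage signalling and repair genes beyond these had 10 of 22 members higher and a median of -0.07. Trp53bp1, a scaffold at DNA breaks, was higher by 1.76 and Rad52, a recombination gene, by 1.34, while the variant histone H2ax was at -1.33 and Xrcc6, a subunit of Ku, at -1.12.

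The genes of the enzymes that amsacrine traps gave low signals. Top2a, the topoisomerase II of dividing cells, went from 7.18 to 6.11, and Top2b, the form also made in resting cells, from 5.93 to 4.89, where it was not detected. The control value of Top2b lay below the lowest detected signal of the amsacrine array (6.05), so no difference is shown for it. Tdp1, which removes topoisomerase adducts from DNA, was not detected on WT control and was at least 2.01-fold higher. Over the 8 measured topoisomerase and adduct repair genes the median was 0.64, with 5 higher and 3 lower by measured value. The 3 lower genes include Top2b, for which the limits show no difference.

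Cell division genes lay on the lower side. Of 14 measured mitotic genes 12 were lower, 10 of them at least 2-fold by value and 6 with bounds, and the median was -1.28 (-0.90 with bounds). It was -0.49 in the authors' deposited table and -0.60 with no detection filter. The median of these genes between the null controls was 0.37, with 0 of them 2-fold apart, and their median response was -0.91 in p53-null and 0.57 in Δ122p53 cells. Many mitotic promoters carry a CHR element (TTTGAA) and CCAAT boxes. The promoters of 3 mitotic genes are shown with matches to either on both strands in capitals.
Cdc20, chr4:118437294-118437593, minus strand: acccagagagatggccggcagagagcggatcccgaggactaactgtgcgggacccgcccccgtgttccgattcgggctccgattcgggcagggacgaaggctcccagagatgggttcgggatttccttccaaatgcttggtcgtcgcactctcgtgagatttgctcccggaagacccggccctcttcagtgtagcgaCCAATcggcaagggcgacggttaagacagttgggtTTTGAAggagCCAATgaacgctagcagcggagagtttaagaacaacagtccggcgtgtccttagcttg
Aurka, chr2:172370521-172370820, minus strand: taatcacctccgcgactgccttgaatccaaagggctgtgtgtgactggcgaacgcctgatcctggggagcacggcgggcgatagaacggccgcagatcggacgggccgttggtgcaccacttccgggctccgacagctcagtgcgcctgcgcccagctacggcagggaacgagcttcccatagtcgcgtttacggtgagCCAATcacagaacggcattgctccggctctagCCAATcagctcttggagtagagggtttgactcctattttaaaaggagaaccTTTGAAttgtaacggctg
Plk1, chr7:122159185-122159484, plus strand: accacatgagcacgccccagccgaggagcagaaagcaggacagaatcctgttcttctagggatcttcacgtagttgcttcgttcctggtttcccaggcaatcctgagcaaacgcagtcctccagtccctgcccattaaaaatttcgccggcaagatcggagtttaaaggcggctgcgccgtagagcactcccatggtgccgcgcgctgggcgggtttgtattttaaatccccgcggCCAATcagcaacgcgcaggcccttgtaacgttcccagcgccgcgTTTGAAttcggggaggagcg
Both motifs occurred in 10 of 13 promoters of the measured mitotic genes (76.9%), against 7.0% of all promoters. Counted singly, CHR elements were found in 14.1% of promoters of genes at least 2-fold lower and in 17.9% of all promoters. For CCAAT boxes these shares were 38.7% and 37.4%. The motifs were searched with no allowance for mismatches, and their letters do not overlap.

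Birc5, which encodes survivin of the chromosomal passenger complex, went from 8.67 to 6.15 in WT cells (-2.52 ± 0.39 SE) and stood at 7.77 and 8.02 on the null controls. Nusap1, a spindle protein gene, went from 8.88 to 6.86. Cdc20, an activator of the anaphase-promoting complex, was at least 3.01-fold lower. The kinase genes Aurka and Plk1 were at -1.32 and -1.27, with null control differences of 0.65 and 0.30. Cenpa, the centromeric histone H3 variant, went the other way, from 11.40 to 12.17.

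DNA replication genes were lower for 26 of 31 members, 10 of them at least 2-fold (9 with bounds), with a median of -0.74 (-0.45 with bounds) and a null control median of 0.24. The median was -0.30 in the authors' deposited table and -0.32 with no detection filter or with detection on both WT arrays. The S-phase transcription factor gene E2f1 was at least 4.02-fold, the thymidine kinase gene Tk1 at least 2.88-fold and the thymidylate synthase gene Tyms at least 2.62-fold lower. Uhrf1, which maintains DNA methylation, went from 9.48 to 7.24 (-2.24 ± 0.47 SE). The helicase subunit genes Mcm5, Mcm6 and Mcm7 were at -0.74, -0.32 and -0.25, while Mcm2 and Mcm4 were 0.47 and 0.49 higher. E2F motifs (TTTCGCGC or TTTGGCGC, both strands) were found in 9 of 37 promoters of these genes (24.3%), against 0.8% of all promoters. The share was 1.6% for promoters of the genes detected on a WT array and 1.4% for those of genes at least 2-fold lower.

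Histone genes did not follow the other replication genes, and their families split. All 10 measured H4 genes were higher, 9 of them at least 2-fold, with differences from 0.78 to 1.85 and a median of 1.24. Between the null controls the same H4 genes differed by -0.85 to 0.37. H4c11 went from 8.58 to 10.43 and H4c1 from 9.76 to 11.34, with 8.18 and 8.18, and 9.55 and 9.36, on the null controls. Of 10 H2A genes 6 were at least 2-fold lower and 1 was higher (median -1.18), but these genes had a median of 1.06 between the null controls. H2B genes were higher for 8 of 10 (median 0.34) and H3 genes for 3 of 4 (median 0.70). The linker histone gene H1f2 was at -1.30, against 2.30 between the null controls. Over these families 22 of 35 measured genes were higher, 10 at least 2-fold higher and 8 at least 2-fold lower. The list of core and linker histones holds 28 of them, with 20 higher (median 0.73, and 0.36 in the authors' deposited table and 0.34 with no detection filter); it leaves out some of the lower H2A genes. The H4 median ran from 0.92 to 1.26 and the H2A median from -1.37 to -1.18 over the scalings and value tables run. Genes of one histone family are nearly identical, so signal may be shared between their probes.

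Genes of amino acid supply lay mostly on the higher side, while those of the integrated stress response, the programme driven by ATF4, were mixed. Of 10 amino acid transporter genes 9 were higher, 6 of them at least 2-fold (5 with bounds), with a median of 1.37 (1.04 with bounds) and -0.07 between the null controls. The median was 0.68 in the authors' deposited table and 0.84 with no detection filter. The same genes had a median response of 1.37 in p53-null and 0.21 in Δ122p53 cells. Slc38a5, an amino acid transporter gene that the list leaves out, was at least 9.04-fold lower. Slc1a4, a neutral amino acid transporter gene, was at least 4.83-fold higher, Slc38a9, an arginine sensor of the lysosome, was higher by 2.26, and Slc7a5, which encodes the transporter LAT1, by 1.79. Among 11 aminoacyl-tRNA synthetase genes 9 were higher (median 0.66), led by Cars at 2.37 and Aars at 1.66. The list's median response was 0.66 in p53-null and 0.37 in Δ122p53 cells. Integrated and ER stress genes had 13 of 22 higher, 7 at least 2-fold higher and 5 at least 2-fold lower, or 4 with bounds (median 0.29). Trib3, a pseudokinase target of ATF4, went from 5.96 to 8.96, 8.01-fold higher, with 5.32 and 5.43 on the null controls, where it was not detected, and 9.23 on null amsacrine. Its promoter is shown with the match to the C/EBP-ATF composite element (TGATGNAA, both strands) in capitals.
Trib3, chr2:152344011-152344310, minus strand: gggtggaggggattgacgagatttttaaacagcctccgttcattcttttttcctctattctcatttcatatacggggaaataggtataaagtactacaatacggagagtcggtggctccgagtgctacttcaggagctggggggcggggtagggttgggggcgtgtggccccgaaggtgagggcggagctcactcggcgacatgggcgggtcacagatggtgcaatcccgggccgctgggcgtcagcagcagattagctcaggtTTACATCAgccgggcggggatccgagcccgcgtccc
This element was found in 6 of 23 promoters of the stress list (26.1%) and in 4.0% of all promoters. Its share was 2.4% for promoters of genes at least 2-fold higher in treated WT cells.

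Mthfd2, a mitochondrial folate enzyme gene, went from 9.63 to 11.63, Chac1, which degrades glutathione, from 6.13 to 7.96, and Ddit3, which encodes CHOP, from 8.51 to 10.07. Asns, asparagine synthetase, was higher by 1.23. Atf4 itself was 0.33 higher, and its null controls differed by 1.17. The ER chaperone genes Sdf2l1 and Hspa5 were at least 2.38-fold and at least 1.58-fold lower. Ddit4, an inhibitor of mTORC1 signalling, went from 5.97 to 8.37 in WT cells, against 6.44 and 6.35 on the null controls and 5.65 on null amsacrine, where it was not detected. Ribosome biogenesis genes were higher for 16 of 21, 1 of them at least 2-fold (Gnl3, 1.27), with a median of 0.52 against 0.32 between the null controls.

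**Figure D3:**
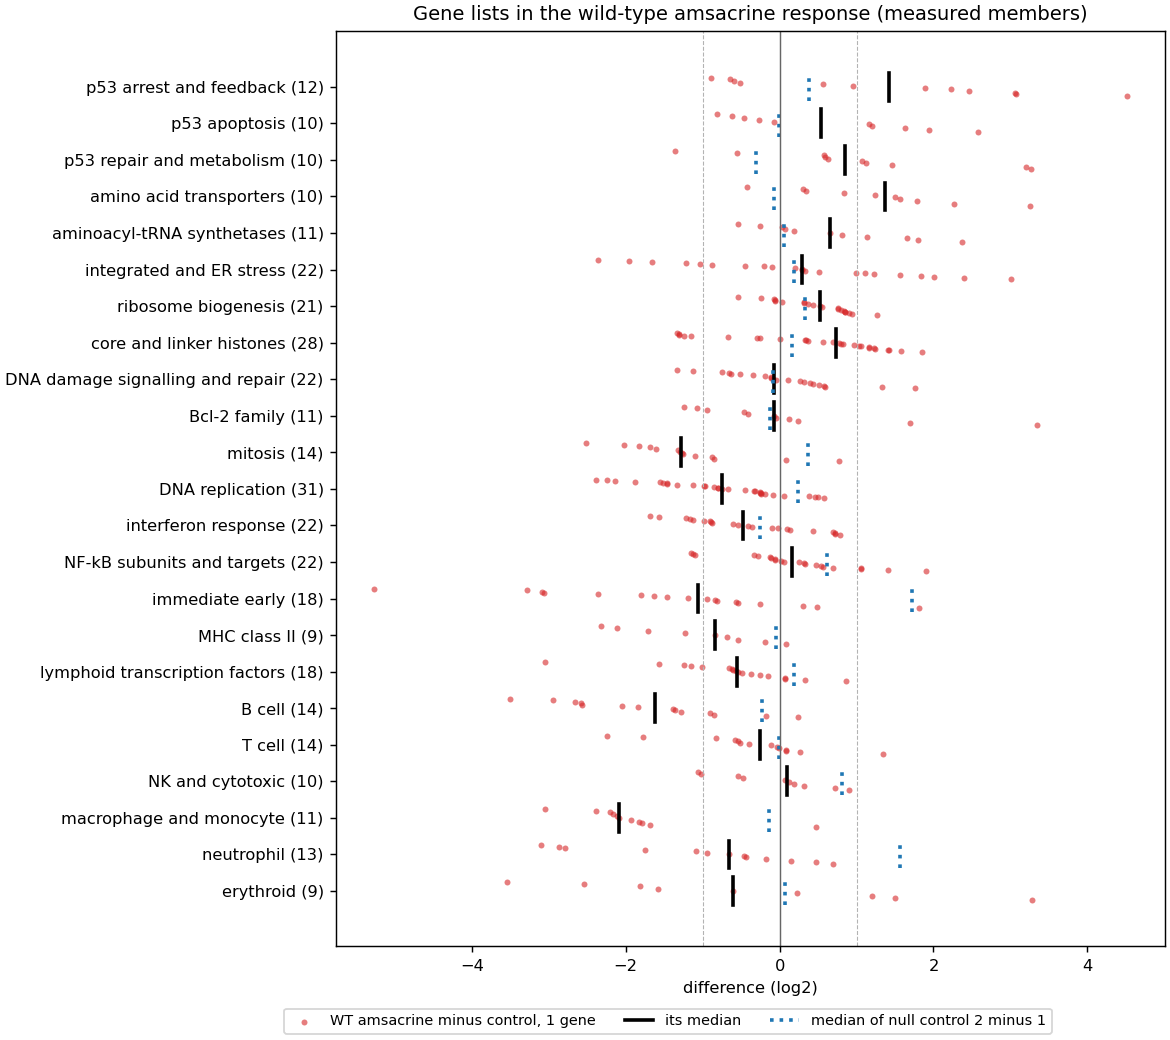
Difference between WT amsacrine and WT control (log2) for each measured member of 23 gene lists, 1 red point a gene, with the list's median (black bar) and the median of the same genes between the p53-null controls (dotted blue bar); dashed lines mark 2-fold. Medians lie furthest right for arrest targets (1.42) and amino acid transporters (1.37) and furthest left for macrophage (-2.08) and B cell genes (-1.62), while the dotted bars lie far from 0 for immediate early (1.71) and neutrophil genes (1.57).

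Markers of splenic cell types differed widely. The measured B cell, T cell, macrophage and neutrophil genes were all detected on WT control. B cell markers were lower for 13 of 14, 10 of them at least 2-fold, with a median of -1.62 and -0.23 between the null controls. Their median response was -1.44 in p53-null and -1.42 in Δ122p53 cells. Their summed linear signal on WT amsacrine was 33.4% of that on WT control. Other sums went the other way, with erythroid markers at 233.1% and dendritic cell markers at 126.4% of WT control. However, these stood at 36.8% and 210.2% on null control 2 relative to null control 1. A linear sum follows its brightest genes. The erythroid median was -0.61 (-0.24 with bounds), with 4 of 9 genes higher and 5 lower. The B cell sum was 86.6% on null control 2 relative to null control 1. Cd22, an inhibitory receptor of B cells, was at least 5.52-fold lower. Cd79a, a signalling chain of the B cell receptor, went from 12.42 to 9.76 (-2.65 ± 0.38 SE), with 12.19 and 12.12 on the null controls. Vpreb3, a B lineage gene, went from 10.68 to 7.73, and Ms4a1, which encodes CD20, from 8.47 to 7.08. Blnk, an adaptor of the same receptor, was at -0.18, and the chemokine receptor gene Cxcr5 at 0.24.

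MHC class II genes, which B cells share with other antigen-presenting cells, were lower for 8 of 9, 4 of them at least 2-fold, with a median of -0.85. H2-DMa and H2-DMb1, which load peptide onto class II, were at -2.33 and -2.12, and the transactivator gene Ciita at -1.23, while H2-Aa, a class II chain, was at 0.08. Lymphoid transcription factor genes were lower for 14 of 18 (median -0.56). Bcl11a, needed for B lymphopoiesis, went from 9.84 to 6.79, with 10.06 and 10.20 on the null controls. The part of B cell number in these values was not tested.

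T cell markers moved less as a group: 10 of 14 were lower and 2 at least 2-fold lower, with a median of -0.25. The CD3 chain genes Cd3e and Cd3d were at -0.11 and -0.04. Lat, an adaptor of the T cell receptor, went from 10.35 to 8.11 and Thy1, a surface glycoprotein gene, from 12.37 to 10.58, while the interleukin 7 receptor gene Il7r was higher by 1.35. NK and cytotoxic genes had 6 of 10 higher (median 0.10, and 0.81 between the null controls). The 3 measured plasma cell genes were lower, with Tnfrsf17 at -1.44.

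Macrophage and monocyte markers had the lowest median of the lists, -2.08 (-1.93 with bounds), with 10 of 11 at least 2-fold lower and -0.14 between the null controls. Their summed signal on WT amsacrine (3893) was 25.8% of that on WT control (15086). On null amsacrine (3488) it was 45.6% of the null control mean, with 7781 and 7522 on the null controls. On the Δ122p53 arrays it was 1951 without and 2319 with amsacrine. Mrc1, the mannose receptor gene, was at least 5.49-fold lower. Slc40a1, the iron exporter of red pulp macrophages, went from 11.72 to 9.34 and the complement gene C1qb from 10.05 to 7.85, with 8.98 and 9.11 on the null controls. Vcam1, an adhesion molecule gene of these macrophages, was at -2.11. Cd14, the lipopolysaccharide co-receptor gene, was the exception at 0.47, with 1.64 between the null controls.

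Interferon response genes were lower for 15 of 22, 5 of them at least 2-fold, or 4 with bounds (median -0.48, and -0.23 with bounds), but the same genes had a median of -0.25 between the null controls. The largest differences were those of Ifi27 (-1.69) and the chemokine gene Cxcl9 (at least 2.82-fold lower). NF-kB subunits and targets had 13 of 22 higher and a median of 0.16, with 9 of the 22 genes at least 2-fold apart between the null controls. Traf1, a signalling adaptor gene, was higher by 1.91 and the inhibitor gene Nfkbie by 1.41.

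Immediate early genes, which answer growth factors and handling within minutes, were lower for 15 of 18, 9 of them at least 2-fold (median -1.07). Between the null controls, 15 of the 18 were at least 2-fold higher on control 2 (median 1.71), so the spread of the control pair exceeded the WT difference of the list. Fosb, an AP-1 subunit gene, went from 10.17 to 4.90, at least 17.4-fold lower, and stood at 8.19 and 10.32 on the null controls and 5.52 on null amsacrine. Fos went from 11.64 to 8.57 (-3.07 ± 0.79 SE), with 10.86 and 12.53 on the null controls, and Jund from 11.19 to 8.10. For Fosb and Fos the amsacrine arrays of WT and p53-null cells lay below all WT and null controls. Fosb was not detected on either Δ122p53 array, at 4.78 without and 5.31 with amsacrine. Atf3, a stress-induced factor gene, was at -2.36, with 4.92 and 8.47 on the null controls, and so overlapped them. Fosl2, another AP-1 subunit gene, was higher by 1.81.

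Neutrophil genes also differed between the null controls: 10 of 13 were lower in treated WT cells (median -0.66), and 10 were at least 2-fold higher on null control 2 than on null control 1 (median 1.57). Mpo, myeloperoxidase, went from 9.19 to 6.09, with 6.61 and 9.47 on the null controls. Hp, haptoglobin, went from 9.90 to 7.04 (-2.86 ± 0.40 SE), with 9.74 and 10.07 on the null controls. Erythroid genes went both ways, with 3 of 9 at least 2-fold higher, 4 at least 2-fold lower (3 with bounds) and a median of -0.61. Alas2, the first enzyme of erythroid heme synthesis, went from 8.72 to 12.01, but stood at 10.26 and 7.55 on the null controls, and the alpha globin gene Hba-a1 went from 13.48 to 14.98. Aqp1, a water channel gene of red cells, was at least 10.9-fold lower and the erythroid factor gene Klf1 at least 3.54-fold.

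Over all 6712 genes the WT difference ran against the difference between the null controls, with which it shares no array (Pearson r = -0.34, Spearman rho = -0.35 across genes, which are not independent replicates). Of the 307 genes at least 2-fold higher on null control 2, 235 were lower in treated WT cells, 110 of them at least 2-fold (median -0.70). Of the 151 genes at least 2-fold lower on null control 2, 125 were higher, 71 of them at least 2-fold (median 0.94). Of the 1619 genes at least 2-fold different in WT, 196 (12.1%) were also at least 2-fold apart between the null controls, 181 of them with the opposite sign, against 6.82% of all genes. Between the null controls 0 of 14 B cell genes and 0 of 14 mitotic genes were at least 2-fold apart, against 15 of 18 immediate early genes.

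**Figure D4:**
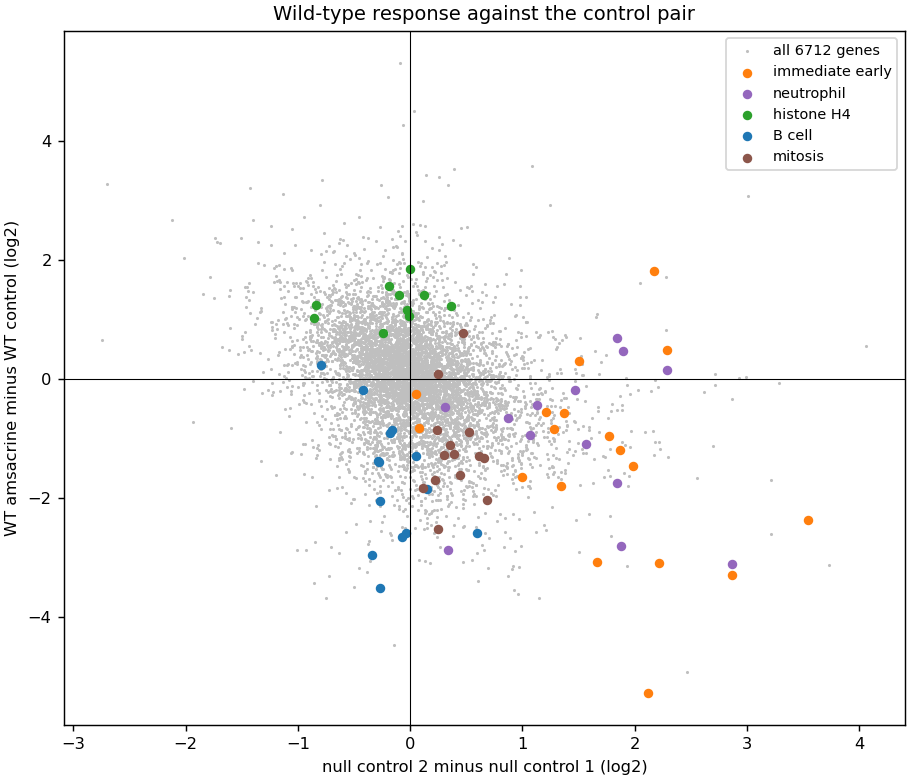
Difference between WT amsacrine and WT control (y, log2) against the difference between null control 2 and null control 1 (x, log2), 1 point for each of 6712 genes. Immediate early (orange) and neutrophil genes (purple) spread to the right of 0, while H4 (green, median 1.24) and B cell genes (blue, median -1.62) differ in WT and lie nearer 0 on the x axis.

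The genes with the largest differences included, besides those above, several with close null controls. Gng4, a G protein gamma subunit gene, was at 4.53 on WT control and 9.85 on WT amsacrine, at least 16.4-fold higher, with 4.71 and 4.62 on the null controls. It stood at 9.56 on null amsacrine and went from 5.39 to 8.39 in Δ122p53 cells, so the amsacrine arrays of all 3 genotypes lay above all 4 controls. Gpnmb, a glycoprotein gene of the lysosome list, was at least 11.5-fold higher in WT. It was not detected on the null controls (5.00 and 4.93), reached 10.32 on null amsacrine, and stood at 6.43 and 6.49 on the Δ122p53 arrays. Dgat1, which makes triacylglycerol, went from 7.91 to 11.35, Cables1, a Cdk5 adaptor gene, was at least 7.07-fold and Ppp1r16b, a phosphatase regulator gene, at least 6.06-fold higher. Pde3b, a cyclic nucleotide phosphodiesterase gene, was at least 7.11-fold higher, with a null control difference of -1.14. Crem, a cAMP-responsive factor gene, went from 6.99 to 10.57, with 5.42 and 6.51 on the null controls. The p53-null response was 2.50 for Dgat1, 3.98 for Cables1, 2.37 for Ppp1r16b, 2.50 for Pde3b and 3.78 for Crem. On the Δ122p53 control array Dgat1 stood at 8.95, Cables1 at 8.08, Ppp1r16b at 8.33, Pde3b at 8.76 and Crem at 9.50. On Δ122p53 amsacrine they stood at 10.09, 7.72, 5.83, 7.97 and 9.90.

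On the lower side, Srpk3, a kinase of splicing factors, went from 11.30 to 6.83 (-4.47 ± 0.38 SE), with 11.11 and 10.96 on the null controls, 6.64 on null amsacrine, and 7.72 and 4.79 on the Δ122p53 arrays. B3gnt8, a glycosyltransferase gene, went from 10.13 to 6.45, and Fgd2, an exchange factor gene for Cdc42, from 9.89 to 6.66. Ell3, an elongation factor gene, was at least 8.82-fold lower and Serpinb1a, a protease inhibitor gene, at least 4.53-fold. Slc38a5, an amino acid transporter gene, was at least 9.04-fold lower, Mgst3, a microsomal glutathione transferase gene, at least 7.53-fold, and BC028528 at least 7.15-fold. Apol7c was at least 6.07-fold and Sirpb1b at least 5.35-fold lower. Fbxw5, a ubiquitin ligase adaptor gene, was at least 13.1-fold and the factor gene Klf4 at least 6.16-fold lower, but their null controls differed by 2.47 and 2.87.

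Compared with the other genotypes, 262 of the 714 genes at least 2-fold higher in WT were also at least 2-fold higher in p53-null cells, which is 36.7% of the WT genes and 64.2% of the 408 in p53-null cells. On the lower side 468 genes were shared (51.7% of 905 and 76.8% of 609). Over all genes 6.08% were at least 2-fold higher and 9.07% lower in p53-null cells. With the Δ122p53 response 31 higher genes (4.3% and 17.4%) and 115 lower genes (12.7% and 39.9%) were shared, against 2.65% higher and 4.29% lower over all genes. In Δ122p53 cells 24 of the higher WT genes were at least 2-fold lower and 46 of the lower WT genes at least 2-fold higher. The 3 responses share no array. Tested as a difference between responses in limma, 0 of 7456 genes passed an adjusted p of 0.05 between WT and p53-null (0%). The lowest adjusted p was 0.647, and 113 genes lay under an unadjusted p of 0.05. Between WT and Δ122p53 the count was also 0 (0%), the lowest adjusted p was 0.332, and 804 genes lay under an unadjusted p of 0.05. Some p53 targets were detected on all of these WT and p53-null arrays. Among them, Slc19a2 exceeded its p53-null response by 2.68 ± 0.53 and Ccng1 by 2.46 ± 0.51 (SE). Trp53inp1 did so by 2.27 ± 0.65, Mdm2 by 1.86 ± 0.50 and Ei24 by 1.79 ± 0.50. Others showed no such excess, among them Sfn at 0.055, Gadd45a at -0.12, Plk3 at -0.58 and Trp53i13 at -0.82. Median differences from the p53-null response were 0.68 for all measured arrest targets, 0.28 for apoptosis targets and 0.99 for repair and metabolism targets.

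Gene length went with the direction of the WT difference. Of 1000 genes spanning under 5 kb, 5.1% were at least 2-fold higher and 20.0% at least 2-fold lower (median -0.19). Of 953 genes of 40 to 80 kb, 17.0% were higher and 9.5% lower (median 0.27). Above 160 kb the pattern did not continue, with 12.2% higher and 15.1% lower among 271 genes (median -0.03). The same bins had medians of 0.05, -0.08 and 0.00 between the null controls, and of -0.09, 0.10 and -0.18 in the p53-null response. The longest genes also had the lowest levels, with a WT control median of 8.25 under 5 kb and 7.03 over 160 kb, and the part of signal level in the pattern was not tested. Among genes detected on both WT arrays the medians were -0.12, 0.29 and 0.06.

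**Figure D5:**
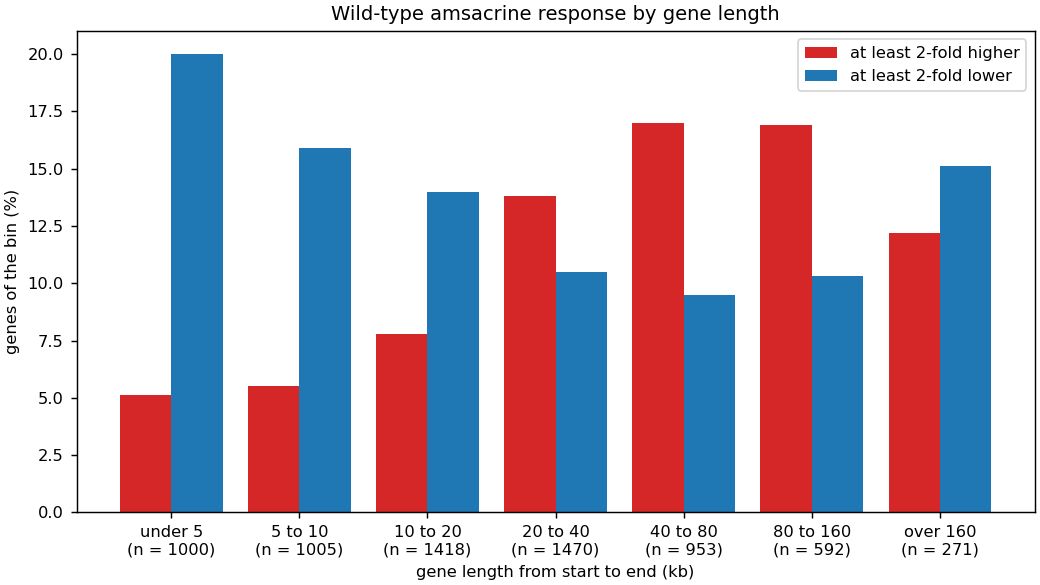
Share of genes (%) at least 2-fold higher (red) and at least 2-fold lower (blue) on WT amsacrine than on WT control, by gene length from start to end in GRCm38.p6 (kb), with the number of genes under each bin. The red bars go from 5.1% under 5 kb to 17.0% at 40 to 80 kb, and the blue bars from 20.0% to 9.5%.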

How the data were processed

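Illumina mouse beadchips (8 arrays) measured RNA of cultured splenocytes. The authors deposited probe intensities with detection p-values, non-normalized per the file headers. A second table the authors deposited holds normalized values, taken here as log2 and used only as an alternative; it came from lumi per the submitters' processing notes, with settings not given in the sources used here.

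All arrays were background-corrected with limma's neqc (offset 16), quantile scaled and put on the log2 scale (R 4.3.3, limma 3.58.1). Of 24613 probes, 20984 had 1 symbol, 1 had several and 3628 had none here. Entrez identifiers matched 20968 of those with 1 symbol to RefSeq, whose symbol was then used. The probe with the highest mean stood for a gene. Detected probes numbered 7710 to 8633 per array (median signal 69.7 to 81.5), and the number of arrays limits the precision. Trp53 has no probe in the annotation used here, so the targeted gene was not analysed.

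A limma model with 7 group means took its 1 residual degree of freedom from the null control pair (prior degrees of freedom 4.78, prior SD 0.292) and treated every array as varying like that pair. Nothing says the pair came from separate pools, so p-values may reflect technical spread only. P-values were 2-sided and Benjamini-Hochberg adjusted across 7456 genes; the fit was tested on simulated data. The p53-null response is the amsacrine array minus the mean of both null controls. Named genes were the 15 largest differences each way that exceeded the null control difference, with no probe of opposite sign, then up to 6 members of each of 34 lists by size, and Cdkn1a and Mdm2; further list members were named after their values were seen. Members and lists were chosen with earlier results of these data known. Gene lengths (6709 genes) and promoters (26 of 32 measured p53 targets) came from RefSeq, GRCm38.p6. Alternatives changed the offset, scaling, value table, detection filter, probe rule, arrays scaled together and eBayes trend.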

Additional observations from a re-analysis of the deposited data

How the results depend on the processing

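The 1619 genes at least 2-fold different in WT cells became 1092 with a normexp offset of 50, 521 in the authors' deposited table, and 1062 with detection on both WT arrays. They numbered 1560 to 1657 under the other alternatives, and 1600 to 1621 without either null control. The share of higher genes among them was 44.1%, 38.9% with cyclic loess and 50.7% with detection on both arrays. At an adjusted p under 0.05 limma called 0 genes, 3 with the mean over a gene's probes (Gng4, Phlda3 and Srpk3) and 2 with an intensity trend in eBayes (Gng4 and Phlda3); in the other alternatives run it called 0, with smallest adjusted p-values from 0.0679 to 0.208. Unadjusted counts ran from 980 to 2301. The WT response differed from the p53-null and Δ122p53 responses for 0 genes in the alternatives run. The median of p53 apoptosis targets turned from 0.54 to -0.27 with detection on both WT arrays, which leaves out genes not detected on control. The median of arrest targets was 1.42, 0.76 with that filter, 0.60 in the authors' table and 0.19 with no detection filter. Over 14 lists, the medians moved by less than the prior SD of the fit in 104 cases. They moved by more in 21, besides that reversal. Values of named genes moved by more than that SD in 60 cases and by less in 198, and 0 reversed. In the authors' table Gng4 differed by 2.67, Phlda3 by 2.14 and Fosb by -2.81. These are smaller in size than the limits of the main processing, 4.03, 3.58 and -4.12 on the log2 scale. The median of all genes was 0.04, and -0.04 with cyclic loess. The fit without either null control was not run, since no residual degree of freedom remains. No paired analysis was possible because the WT groups share only replicate number 1.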

Other observations

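Several gene groups lay near 0 between the WT arrays or went both ways. Nrf2 antioxidant genes were higher for 8 of 11 (median 0.22): Srxn1, which repairs oxidised peroxiredoxins, was at least 4.03-fold and the factor gene Nfe2l2 at least 2.94-fold higher, while the heme-degrading enzyme gene Hmox1 was at -1.68, with a null control difference of 1.34. Lysosomal genes had 9 of 21 higher (median -0.12), with the protease genes Ctss at -1.55 and Ctsh at -1.17, and Lamp1 at 0.99, besides Gpnmb, given above. Proteasome genes had 12 of 31 higher (median -0.17), and the immunoproteasome subunit genes Psmb8 and Psmb10 were the lowest, at -1.70 and -1.52, with null control differences of 0.03 and 0.04. Heat shock chaperone genes had 5 of 7 higher and 0 at least 2-fold apart (median 0.28). Sterol and fatty acid synthesis genes had a median of -0.10. Among them Scd2, a fatty acid desaturase gene, went from 10.37 to 12.23 in WT cells, with 10.63 and 10.50 on the null controls and 8.79 on null amsacrine.

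Dendritic cell genes had 3 of 6 higher (median 0.20, but -0.02 in the authors' deposited table), with the factor gene Zbtb46 at least 2.04-fold higher. Megakaryocyte and platelet genes had 3 of 5 higher (median 0.00, and -1.07 between the null controls). Of 11 stromal and endothelial genes 1 was measured, Pecam1, at -0.95. Member probes without a single gene symbol numbered 1168, of which 155 were at least 2-fold higher and 218 at least 2-fold lower in WT cells.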
